A study of Homo sapiens with 6 samples.

Results

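The genes that write, erase and guard DNA methylation were examined in H9, an established line of embryonic stem cells from human. Bisulfite sequencing of the whole genome gave 3 conventional and 3 reset libraries. The group holds 10 genes, chosen by name for their roles, out of 19819 protein-coding genes annotated on chromosomes 1 to 22 and X: the methyltransferases DNMT1, DNMT3A and DNMT3B, their catalytically inactive relative DNMT3L, the maintenance factor UHRF1, the dioxygenases TET1, TET2 and TET3, and the imprint guards ZFP57 and TRIM28. Conventional cells were kept in KSR at 20% with bFGF at 10 ng/ml. Reset cells carried transgenes for NANOG and KLF2 that doxycycline (1 μM) switches on, and were then kept without doxycycline in t2iL+Gö, a mixture of CHIR99021 (1 μM), PD0325901 (1 μM), Gö6983 (5 μM), which inhibits protein kinase C, and LIF. Both kinds of culture stood on mouse embryonic fibroblast feeders in 5% oxygen. The study calls the libraries biological replicates and does not say whether the reset ones came from separate resettings. The p-values therefore cannot be taken to measure the spread between resettings. They rest on the number of calls and on a spread between these libraries that was moderated over all features tested. Culture medium and transgene history differ together and cannot be told apart.

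In mammals DNMT3A and DNMT3B place methyl groups on unmethylated CpGs, with DNMT3L as a stimulating partner in germ cells and early embryos. UHRF1 recognises the CpGs left methylated on one strand after replication and brings in DNMT1, which copies the mark. TET enzymes oxidise methylcytosine and so begin its removal. ZFP57 is a zinc finger protein that binds methylated imprinting control regions, where it recruits TRIM28 (KAP1), a scaffold for histone methylation and DNA methyltransferases. Promoters in CpG islands (CGIs) are usually free of methylation, whereas gene bodies are usually methylated. The measurements are of DNA methylation at these genes, and RNA or protein levels were not analysed here.

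A methylation level is the percentage of calls at CpGs that were methylated. The conventional libraries held 92023996 to 98004161 calls and the reset libraries 70329213 to 80199615, a mean of 3.28 to 3.49 and of 2.51 to 2.86 calls per CpG. Over all calls 84.3 to 84.6% were methylated in conventional libraries and 29.5 to 30.3% in reset libraries, and every member lies within that loss. Tests were therefore made over features, and single CpGs appear only as counts of calls pooled over libraries. Of the promoters of pluripotency genes used as a check, NANOG stood at 6.52% ± 0.96 in conventional and 3.83% ± 0.87 in reset cells (SD, n = 3 each), POU5F1 at 14.8% ± 5.9 and 2.68% ± 2.4, and DPPA3 (STELLA) at 79.9% ± 10 and 4.41% ± 4.0. Methylation alone does not show which cell type a library holds.

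The stretches below show where methylation was nearly lost inside a gene, as 300 bases each of the GRCh37 reference, written 5′ to 3′ on the strand of the gene with every CpG in capitals. The first lies within DNMT3L at chr21:45678239-45678538 (minus strand), overlaps exon 6 and is rich in CpGs. The second lies in intron 2 of TET2 at chr4:106136001-106136300 (plus strand) and has few.
DNMT3L: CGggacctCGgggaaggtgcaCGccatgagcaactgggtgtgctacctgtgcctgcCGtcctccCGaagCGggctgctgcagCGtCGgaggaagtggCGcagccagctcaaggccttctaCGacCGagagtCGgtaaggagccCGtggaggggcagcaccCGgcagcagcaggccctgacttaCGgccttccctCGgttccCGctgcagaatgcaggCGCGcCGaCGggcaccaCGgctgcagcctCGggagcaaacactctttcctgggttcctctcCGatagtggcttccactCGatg
TET2: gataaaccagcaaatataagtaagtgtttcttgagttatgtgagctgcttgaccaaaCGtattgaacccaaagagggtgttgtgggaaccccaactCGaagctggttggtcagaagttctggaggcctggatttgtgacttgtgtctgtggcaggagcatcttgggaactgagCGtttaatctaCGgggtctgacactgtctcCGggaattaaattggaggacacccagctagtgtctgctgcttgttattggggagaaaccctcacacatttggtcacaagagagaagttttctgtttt

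In the DNMT3L stretch 137 of 147 calls over 25 CpGs were methylated in conventional libraries and 3 of 214 in reset libraries, pooled over the libraries of each group. At 22 of these CpGs no methylated call was left in reset cells, where each of the 22 had 5 to 13 calls. The TET2 stretch, with only 5 CpGs, went from 53 of 56 methylated calls to 2 of 61.

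Promoter methylation fell at 6 of the 10 members and rose at none (promoter, 1000 bp upstream to 500 bp downstream of the canonical TSS; quasi-binomial logistic model with limma-moderated dispersion, Benjamini-Hochberg adjustment over 19300 promoters). Among all promoters 67.4% were lower and 3.98% higher in reset cells, so the 60% of members is near the background. In 7 members, the 6 and DNMT3B, every reset library lay below every conventional one, as in 68.9% of all promoters. The median difference was -12.0 percentage points over the members and -9.59 over all promoters. A CGI overlapped 9 of the 10 member promoters. Among all 14261 promoters with a CGI, 58.2% were lower and 4.93% higher, with a median difference of -5.22 points. The 10 genes fall into 3 kinds by their conventional level, as the plot of levels by library shows: highly methylated (ZFP57, DNMT3L), between 14.6 and 21.9% (DNMT1, UHRF1, TET1, TRIM28) and under 5% (DNMT3A, DNMT3B, TET2, TET3).

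**Figure D1:**
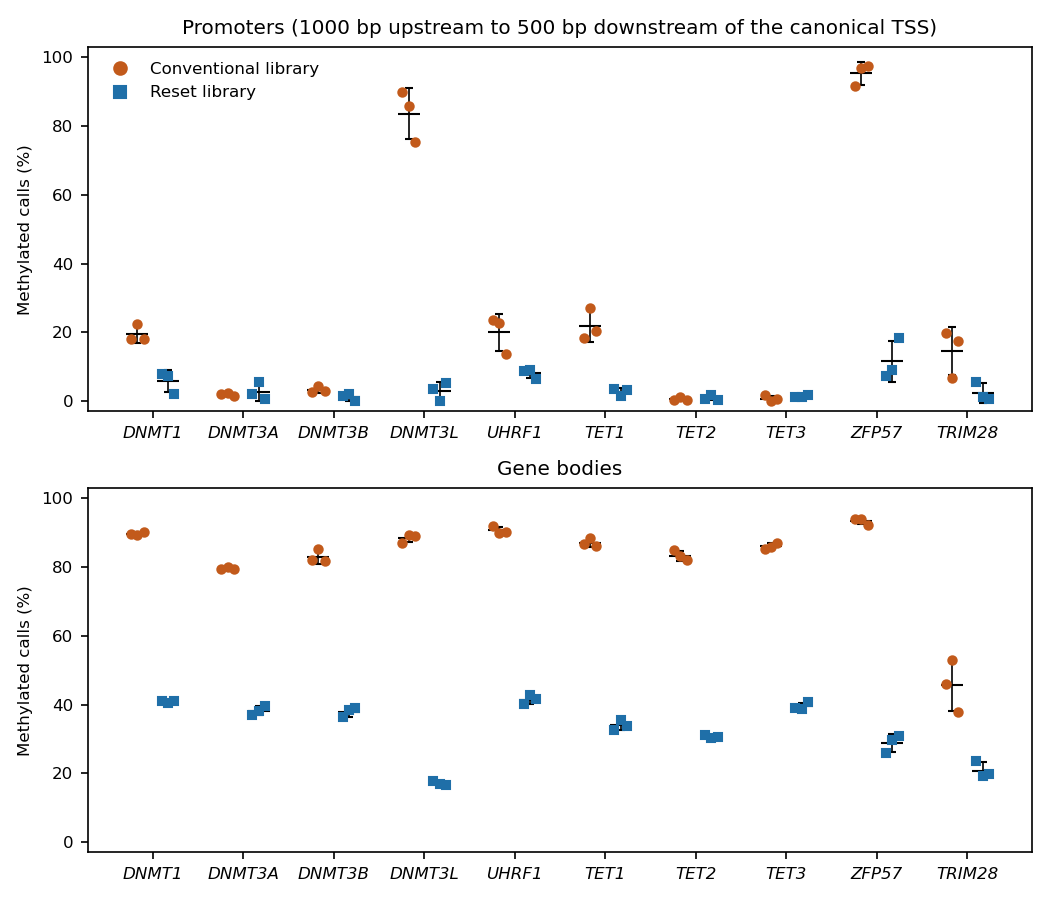
Methylation of the 10 genes in each library, in percent of calls, at the promoter (top) and over the gene body (bottom). Circles are conventional and squares reset libraries, with the mean and SD (n = 3) in black. DNMT3L and ZFP57 have the highest conventional promoter levels, and every reset gene body lies below every conventional one of the same gene.

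The promoter of ZFP57, the imprint guard, had the highest conventional level of the group. It spans chr6:29648430-29649929, holds 72 CpGs and overlaps a CGI. Its levels were 91.5%, 97.0% and 97.6% in the conventional libraries and 7.23%, 9.19% and 18.3% in the reset libraries. All reset libraries lay far below all conventional ones, and the third reset library was the least depleted. The difference was -83.8 ± 2.75 points (SE; adjusted p = 9.376e-09). Few promoters with a CGI are methylated to this extent in conventional cells. Only 489 of 14261 stood at 75% or more, and their median reset level was 37.2%. ZFP57, at 11.6% ± 5.94 in reset cells, had a lower reset level than all but 14.9% of these 489.

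The promoter of DNMT3L, the cofactor of the de novo enzymes, spans chr21:45681281-45682780, holds 32 CpGs and overlaps no CGI. It stood at 89.8%, 85.7% and 75.3% in conventional libraries and at 3.57%, 0% and 5.13% in reset libraries. The 0% rests on 73 calls and allows up to 4.11%, a limit that covers counting error only. Here too the groups were far apart, by -80.7 ± 3.98 points (adjusted p = 9.989e-08). The 3709 promoters without a CGI that had 75% or more in conventional cells had a median of 33.4% in reset cells, and only 0.539% of them had a lower reset level than DNMT3L. The DNA around DNMT3L was covered better in reset libraries. Relative to the autosomal mean, coverage of 1 Mb around its TSS was 1.16 times that in conventional libraries, against 1.01 to 1.07 times at the other members, and over the gene span itself it was 1.34 times, against 1.19 times at ZFP57, 1.17 at DNMT3B and 1.00 to 1.12 at the remaining members. The part of coverage in the result was not tested.

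At the promoters of intermediate level the loss lay upstream of the start. Falls over the whole promoter window were common at that level, while the position of the loss was examined only at the members. Of the 4611 promoters at 10 to 25% in conventional cells, 81.8% were lower and 2.49% higher, with a median difference of -10.6 points. DNMT1, the maintenance methyltransferase (chr19:10305130-10306629), had 18.0%, 22.3% and 18.0% in conventional libraries and 7.89%, 7.44% and 2.05% in reset libraries, a difference of -13.6 ± 2.5 points (adjusted p = 0.0003238). UHRF1, its recruiter (chr19:4908513-4910012), had 23.5%, 22.7% and 13.7% against 8.67%, 9.09% and 6.47%, a difference of -11.9 ± 2.52 points (adjusted p = 0.0008848). In each of these genes the lowest conventional library stayed above the highest reset library.

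TET1, the dioxygenase known to be abundant in embryonic stem cells (chr10:70319094-70320593), had 18.2%, 27.0% and 20.3% in conventional libraries and 3.55%, 1.44% and 3.23% in reset libraries. The fall of 19.1 points was the largest of these intermediate promoters (-19.1 ± 2.49; adjusted p = 1.083e-05). TRIM28, the scaffold recruited by ZFP57 (chr19:59054431-59055930), had 19.7%, 6.64% and 17.5% against 5.69%, 1.05% and 0.474%, a difference of -12.2 ± 2.61 points (adjusted p = 0.0005535). Its second conventional library came close to its first reset library, and the SD of its 3 conventional libraries was 6.98 points.

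Split into bins of 500 bp, the promoters of these 4 genes were methylated in the bin from 1000 to 500 bp upstream of the TSS and hardly at the TSS itself. In that upstream bin DNMT1 had 91.2%, 91.9% and 84.2% in conventional and 44.8%, 61.9% and 13.6% in reset libraries, over 8 CpGs with at least 21 calls in each library. TET1 had 76.5%, 83.3% and 89.7% against 11.5%, 12.5% and 23.1%, over 6 CpGs with at least 13 calls. The upstream bin of TRIM28 had 75%, 62.5% and 75.8% against 26.3%, 5.13% and 3.85%, and that of UHRF1 77.3%, 94.1% and 66.7% against 34.8%, 44.7% and 43.8%. In the first 500 bp downstream of the TSS no library of either group exceeded 3.88% in any of the 4. With the promoter taken only from 500 bp upstream to 500 bp downstream, the call was lost for DNMT1 (-2.32 points, adjusted p = 0.1279) and TRIM28 (-0.23 points, adjusted p = 0.6814), and smaller falls remained for UHRF1 (-5.80 points, adjusted p = 0.02035) and TET1 (-6.90 points, adjusted p = 0.005259). The promoter calls of DNMT1 and TRIM28 thus rest on the part from 1000 to 500 bp upstream of the TSS. With levels averaged over CpGs the falls were also smaller at DNMT1 (-7.26 points, limma, adjusted p = 0.0133) and TET1 (-10.3 points, adjusted p = 0.004124), and that of TET1 was then close to that of TRIM28 (-10.2 points).

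**Figure D2:**
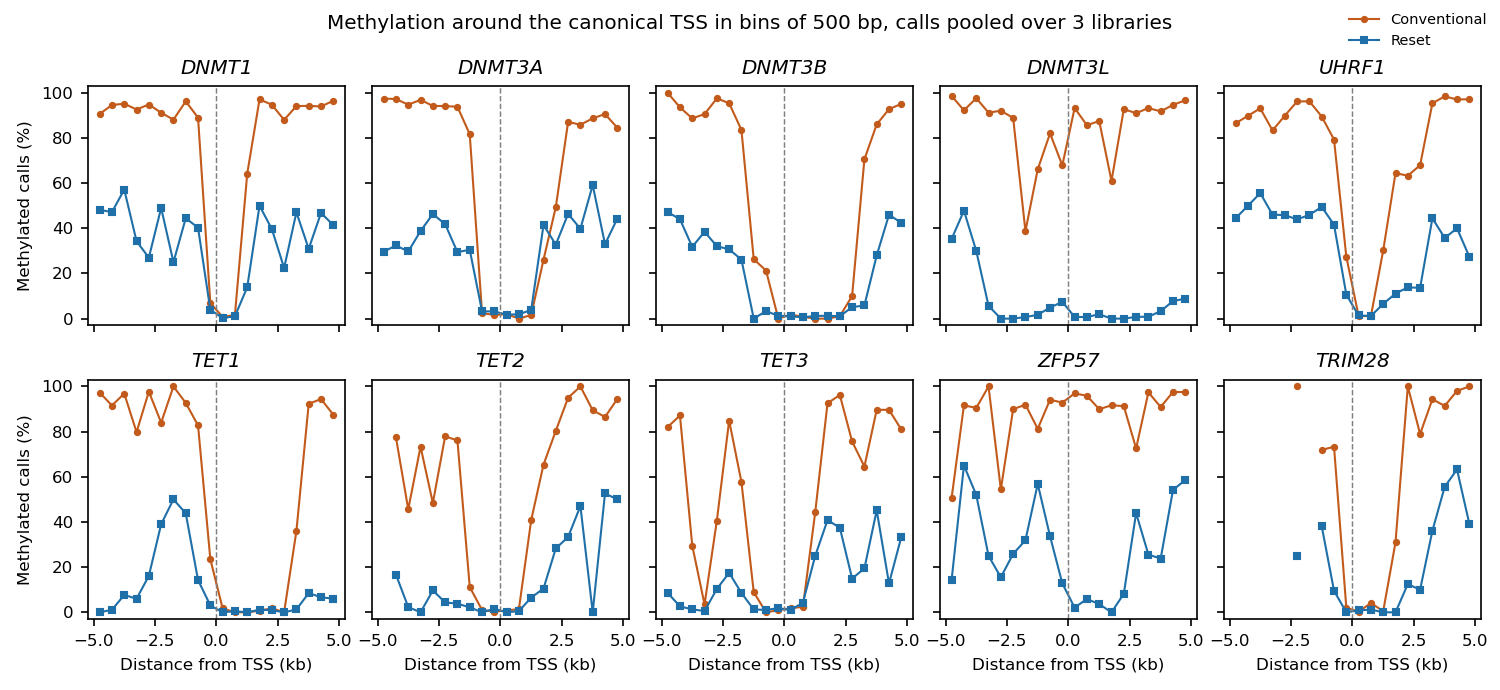
Methylation (percent of calls, pooled over the 3 libraries of a group) against distance from the canonical TSS in kb, in bins of 500 bp, for each gene. Circles are conventional and squares reset cells, and the dashed line is the TSS. In 8 genes both groups meet near 0% at the TSS and part on the flanks, where the reset line is mostly the lower one but is above at DNMT3A from 1500 to 1999 bp downstream (41.5 against 26.1%), whereas in DNMT3L and ZFP57 the conventional line stays high through the TSS.

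Over the whole window the remaining 4 promoters were nearly free of methylation in both groups. DNMT3A (chr2:25564295-25565794), a de novo methyltransferase, had 1.92%, 2.32% and 1.49% in conventional libraries and 2.02%, 5.49% and 0.575% in reset libraries, and the groups overlapped. Its difference was 0.79 points, with a 95% interval from -1.43 to 3.00 (adjusted p = 0.5428). DNMT3B (chr20:31349191-31350690), the other de novo enzyme, had 2.61%, 4.52% and 2.81% against 1.5%, 2.03% and 0%. Its interval ran from -4.44 to 0.17 points (adjusted p = 0.1468). TET2 (chr4:106067033-106068532) had 0.402%, 1.20% and 0.439% against 0.565%, 1.63% and 0.439%, and TET3 (chr2:74211037-74212536) 1.72%, 0% and 0.478% against 1.14%, 1.20% and 1.85%. The intervals were -0.99 to 1.39 points for TET2 (adjusted p = 0.7392) and -0.67 to 2.01 points for TET3 (adjusted p = 0.4636). Of the 5144 promoters under 5% in conventional cells, 16.8% were called lower and 10.1% higher.

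Downstream of the promoter window DNMT3A had a bin of the opposite direction. From 1500 to 1999 bp downstream of its TSS it stood at 27.9%, 16.2% and 31.0% in conventional and at 43.1%, 43.6% and 37.9% in reset libraries, over 23 CpGs with at least 37 calls in each library. Every reset library was higher there, and single bins were not tested.

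Methylation also fell at most starts far from the canonical one. GENCODE gives 7 of the members 44 further groups of TSSs more than 1500 bp from the canonical one, 22 of them in DNMT1, and 43 of the 44 were lower in reset cells and 0 higher. A further 45 transcripts start within 1500 bp of the canonical TSS and were not tested apart from it. Over all protein-coding genes 95.7% of 44866 such starts were lower and 1.25% higher. The median difference was -48.0 points for the members and -51.8 points for all. Many are fragments, 24 of the 44 being annotated as retained introns, and the windows of neighbouring starts overlap. The 40 starts without a CGI stood between 59.2 and 98.3% in conventional cells and between 20.3 and 60.3% in reset cells.

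The 4 other starts with a CGI behaved differently from one another. DNMT3A-203, a protein-coding transcript that starts at position 25475180 of chromosome 2, far inside the gene, had 8.02%, 3.95% and 5.71% in conventional libraries and 1.23%, 1.15% and 1.54% in reset libraries (difference -4.59 points, adjusted p = 0.001034). From 500 bp upstream to 500 bp downstream the difference was 0.044 points (adjusted p = 0.8302). The start of DNMT1-215, at position 10341962 of chromosome 19, lies 36333 bp upstream of the canonical one, beside the start of S1PR2, which encodes a sphingosine-1-phosphate receptor and overlaps the DNMT1 span on the same strand. It fell from 19.7%, 18.6% and 15.2% to 6.90%, 9.09% and 3.79% (adjusted p = 0.0001232), and over the narrower window the difference was -0.25 points (adjusted p = 0.7877). Both calls were also lost when levels were averaged over CpGs and tested with limma (adjusted p = 0.2287 for DNMT3A-203 and 0.06212 for DNMT1-215).

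TET3 has a pair of such starts. TET3-204, 1616 bp downstream of the canonical TSS, fell from 56.4%, 52.6% and 60.8% to 31.6%, 18.0% and 16.5% (difference -34.6 points, adjusted p = 9.666e-11), and by 51.9 points over the narrower window. TET3-201, a protein-coding transcript 17803 bp downstream, was the 1 start of the 44 that did not pass the test. It had 5.56%, 6.25% and 2.94% in conventional and 3.86%, 6.19% and 5.26% in reset libraries (difference 0.19 points, adjusted p = 0.7968), and the groups overlapped. UHRF1-201, which starts 6421 bp upstream of the canonical TSS and has no CGI, fell from 95.2%, 91.1% and 86.7% to 45.5%, 38.7% and 42.5% (adjusted p = 7.013e-14). Its window also holds the start of the neighbouring gene ARRDC5 on the opposite strand (position 4902908).

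At the other starts without a CGI the level kept in reset cells varied within a gene. DNMT3L-203, the single further start of DNMT3L, lies 10659 bp downstream of the canonical TSS, beyond the part that lost most. It fell from 91.9%, 94.5% and 90.7% to 30.5%, 37.4% and 31.3% (difference -59.3 points, adjusted p = 1.861e-18). DNMT3B has 6, with reset means between 36.6 and 53.3%. One of them, the protein-coding DNMT3B-201, went from 79.0%, 94.3% and 91.4% to 35.6%, 42.9% and 45% (adjusted p = 4.392e-10). The 5 of TRIM28 had reset means between 26.4 and 60.3%, the lowest at TRIM28-210, a retained intron with 90.3%, 92.1% and 92.9% in conventional and 19.2%, 41.2% and 18.8% in reset libraries (difference -65.4 points, adjusted p = 3.247e-11). The 21 of DNMT1 lay between 38.1 and 54.1% in reset cells, the 5 of DNMT3A between 20.3 and 57.0%, and the 1 of TET3 at 57.1%.

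All 10 gene bodies lost methylation, with no overlap between groups. Over all genes 97.9% of 19199 bodies were lower and 1.11% higher in reset cells, and the groups did not overlap in 97.9% either (18793 bodies), so the direction is that of the genome. What differed between members was how much was kept. DNMT1 and 5 further genes kept similar shares of their conventional level in reset cells: DNMT1 45.5%, DNMT3B 45.6%, TRIM28 45.7%, UHRF1 45.7%, TET3 45.9% and DNMT3A 48.0%. The median over all gene bodies was 40.3% (quartiles 34.0 and 44.9%). TET1 kept 39.1% and TET2 36.8%.

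The bodies of ZFP57 and DNMT3L kept least. ZFP57 went from 93.9%, 94.0% and 92.2% to 26%, 29.7% and 30.9%, a share kept of 30.9%, below which lay 18.4% of gene bodies (difference -64.5 ± 2.15 points, adjusted p = 6.399e-17). DNMT3L went from 87.0%, 89.2% and 89.0% to 17.8%, 17% and 16.5%, a share kept of 19.3%, below which lay 5.75% of gene bodies (difference -71.3 ± 1.13 points, adjusted p = 9.969e-23). For comparison, DNMT1 went from 89.6%, 89.3% and 90.3% to 41.0%, 40.5% and 41.1% (difference -48.9 ± 0.64 points, adjusted p = 3.01e-26). Replicates of a body differed little, with an SD of at most 2.53 points in all groups except the conventional libraries of TRIM28. TRIM28, a gene of 6.66 kb with a long unmethylated beginning, had the lowest conventional body level, 45.9%, 52.9% and 37.9%, against 23.6%, 19.2% and 19.7% in reset libraries.

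**Figure D3:**
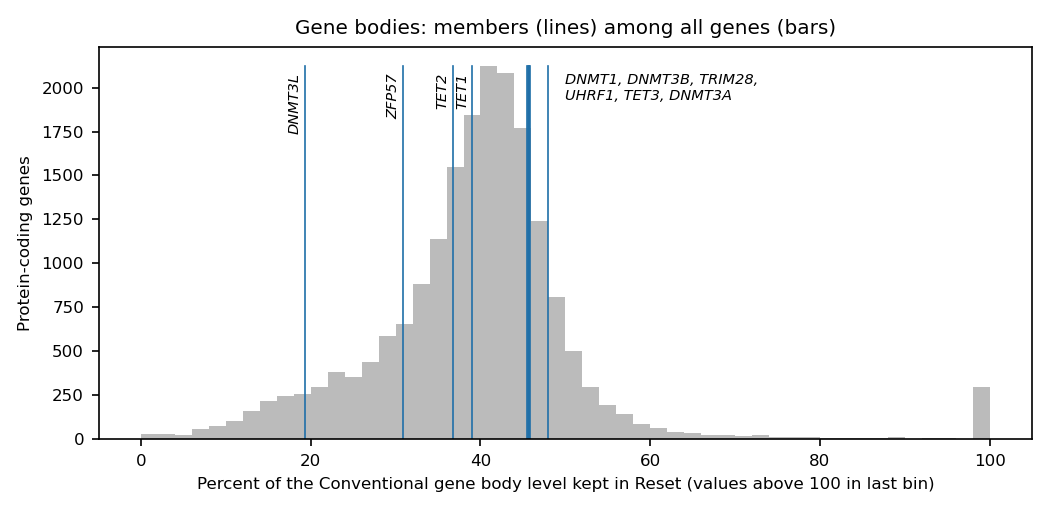
Share of the conventional gene body methylation kept in reset cells, in percent, with the number of protein-coding genes per bin of 2 percentage points as bars and the 10 genes as lines. DNMT3L (19.3%) and ZFP57 (30.9%) lie in the lower part of the distribution, and DNMT1, DNMT3B, TRIM28, UHRF1, TET3 and DNMT3A (45.5 to 48.0%) lie above its median of 40.3%.

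Windows of 1 kb were used to locate the loss within each gene and 5 kb on either side. Of 772 windows tested, 742 were lower in reset cells and 3 higher, against 98.3% and 0.421% of 2060730 windows genome-wide. Of the 27 windows that passed in neither direction, 25 were under 20% in both groups. Of the 716 windows with at least 50% in conventional cells, 32 (4.47%) had 10% or less in reset cells, and these are called erased here. The share genome-wide was 9.46%, so erased windows were not more frequent over the members as a whole. They were unevenly spread: DNMT3L had 10 of 24 and ZFP57 3 of 15, TRIM28 had 1 of 10 and TET2 8 of 89, and the shares were lower in TET1 (5 of 127), DNMT3B (1 of 53), TET3 (2 of 114) and DNMT3A (2 of 116), with 0 in DNMT1 (of 101) and UHRF1 (of 67). The limit of 10% was chosen after the values had been seen.

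In DNMT3L the erased windows formed an unbroken stretch of 9 kb, chr21:45674001-45683000, from upstream of the canonical TSS to exon 8. Conventional levels in this stretch were 72.7 to 96.1% and reset levels 0 to 9.80%. The window chr21:45679001-45680000, over exons 4 and 5, had 91.5%, 92.9% and 90% in conventional libraries and 0% in each reset library, where 0 of 191 calls allow up to 1.57%. Upstream of the stretch, chr21:45683001-45684000 had 47.7% in conventional and 0.991% in reset cells, and the window after it, chr21:45684001-45685000, fell most, from 93.6% ± 3.61 to 0.273% ± 0.473 (difference -93.3 points, adjusted p = 5.148e-71). In the rest of the gene, towards its 3′ end, reset levels reached 43.2%. Genome-wide, 60 runs of 9 or more erased windows were found, which held 0.543% of all erased windows. The range of 5 kb beyond the 3′ end of DNMT3L reaches a CGI near the start of ICOSLG, where levels were 1.87% and 2.16% in the window chr21:45662001-45663000.

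ZFP57 had an erased stretch of 3 kb, chr6:29646001-29649000, over exon 1 and intron 1. The window at the start had the smallest adjusted p of all member windows and fell from 95.8%, 95.9% and 97.8% to 2.72%, 4% and 5.74% (chr6:29648001-29649000; adjusted p = 5.95e-120). The remaining windows of the gene and its flanks had up to 57.3% in reset cells. The erased windows of ZFP57 thus ran from the start into the gene, and those of DNMT3L covered the 5′ part of the gene.

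The CGI starts of the TET genes held little methylation in either group, and large losses lay both on their flanks and far inside the genes. Within 5 kb of the TSS, the pooled level of a 500-bp bin fell from 77.9 to 4.40% upstream of TET2. Such falls were also seen upstream of TET3 (87.1 to 2.63%) and downstream of the TET1 start (87.5 to 6.02%). Other flanking bins kept more, such as 39.0% upstream of TET1. In TET1, a window centred 4593 bp upstream of the TSS (chr10:70315001-70316000) fell from 88.0%, 90% and 95.7% to 0%, 1.54% and 0% (adjusted p = 1.591e-45), and one in intron 3 (chr10:70391001-70392000) from 100%, 95.7% and 93.5% to 3.85%, 3.60% and 10.0% (adjusted p = 1.3e-67). In TET2, 3 neighbouring windows of intron 2 (chr4:106135001-106138000) were erased. The middle one, whose CpGs are those of the sequence above, had 94.7%, 100% and 87.5% in conventional and 5.88%, 0% and 5.00% in reset libraries (adjusted p = 6.656e-21). In TET3 a window of intron 3 (chr2:74252001-74253000) fell from 95.6%, 92.5% and 94.1% to 0%, 9.38% and 4.92% (adjusted p = 2.373e-56).

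**Figure D4:**
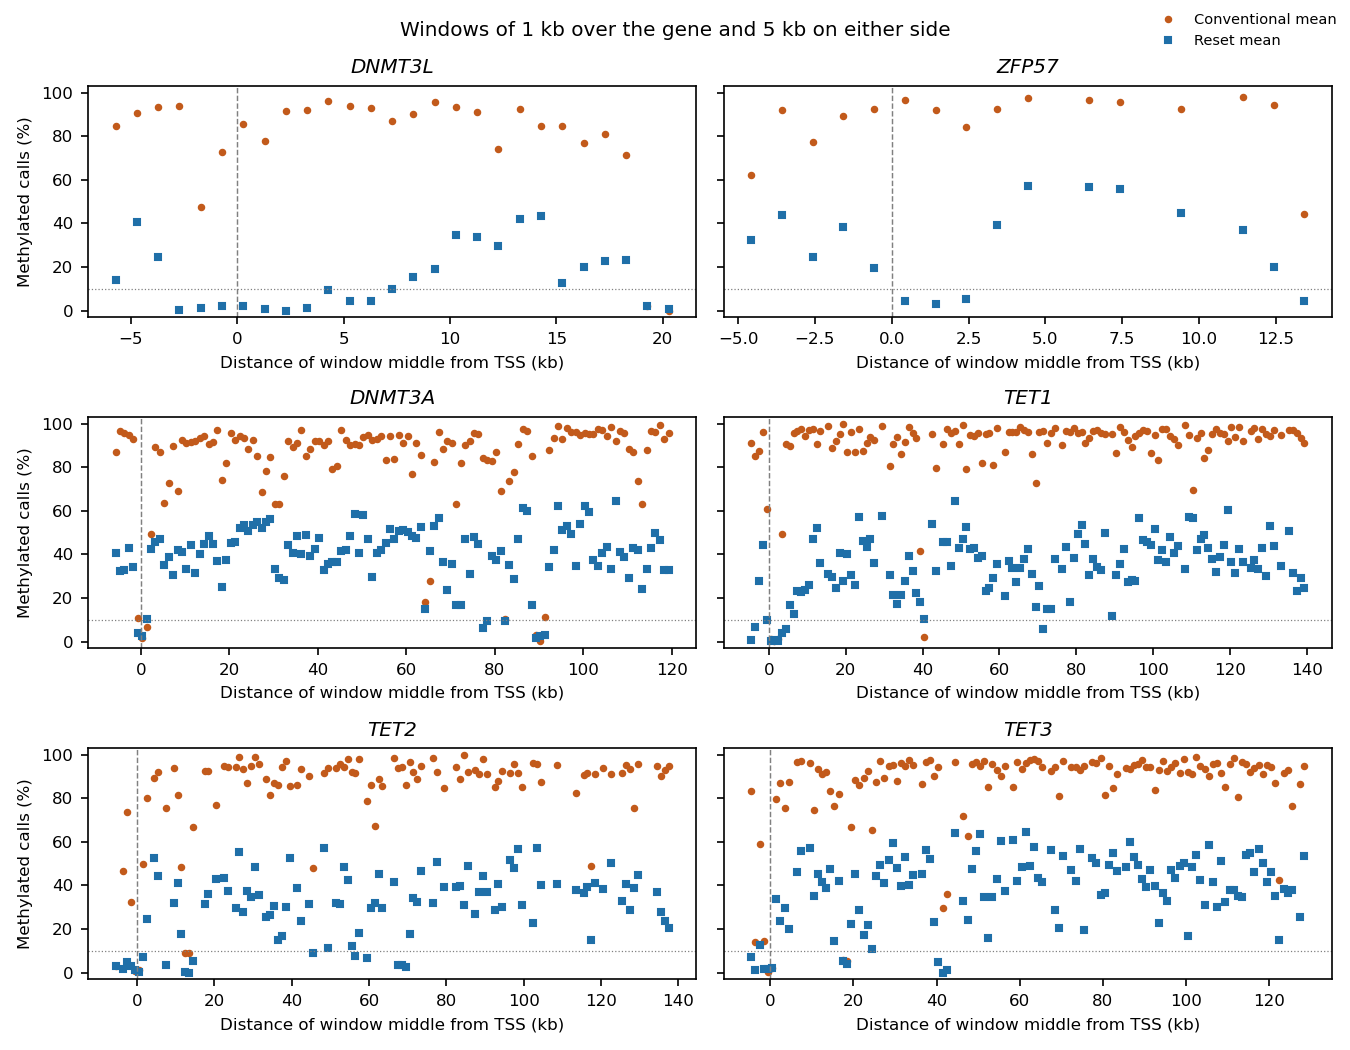
Mean methylation (percent of calls, n = 3) of 1-kb windows against the distance of their middle from the canonical TSS in kb, over 6 genes and 5 kb on either side. Circles are conventional and squares reset cells, the dashed line is the TSS, and the dotted line marks 10%. The reset level stays under 10% across 11 neighbouring windows of DNMT3L and its upstream flank. It is also below 10% over other stretches or at single windows of ZFP57, DNMT3A, TET1, TET2 and TET3, in part where both groups are low.

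In the methyltransferase genes the erased windows were few. DNMT3A had 2 adjacent ones in intron 6 (chr2:25486001-25488000), of which the second fell from 88.0%, 81.1% and 83.6% to 9.89%, 6.41% and 2.35% (adjusted p = 3.574e-50). DNMT3B had 1, in intron 1 (chr20:31353001-31354000), where the levels went from 61.0%, 70.4% and 78.6% to 3.23%, 6.67% and 7.78% (adjusted p = 1.079e-32). The window before it stood at 2.17% and 2.24%, and the levels of the groups parted here. The largest fall over DNMT3B was downstream of it (chr20:31399001-31400000), from 91.9% ± 2.74 to 20.6% ± 6.55 (adjusted p = 2.446e-25), and that over TRIM28 lay beyond its 3′ end, within the neighbouring gene CHMP2A (chr19:59064001-59065000), from 94.7% ± 1.08 to 27.0% ± 8.56 (adjusted p = 5.892e-23). The next window (chr19:59065001-59066000), also within CHMP2A, was the erased one of TRIM28 and went from 62.7%, 56.5% and 51.5% to 10.6%, 4.90% and 13.5% (adjusted p = 3.664e-28). The largest fall in DNMT1 left 15% (chr19:10322001-10323000), upstream of the canonical TSS but within the gene span. That in UHRF1 left 19.3% (chr19:4914001-4915000, intron 2).

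Only 3 windows were higher in reset cells. With 98.3% of windows genome-wide called lower, the adjustment changed p-values near the threshold little, so it guards these 3 calls little. In DNMT3A, chr2:25499001-25500000 in intron 4 rose from 32.9%, 29.7% and 21.0% to 37.3%, 50.8% and 36.4%, without overlap (difference 13.6 ± 5.06 points, adjusted p = 0.004939). This call rested on single libraries: without the third conventional library the difference was 10.2 points (adjusted p = 0.1036), and without the second reset library 9 points (adjusted p = 0.07414). Genome-wide 0.249% of windows rose by 10 points or more without overlap. In TET1, chr10:70360001-70361000 over exon 3 rose from 2.00%, 1.61% and 2.22% to 10.7%, 11.8% and 8.57% (difference 8.41 ± 3.08 points, adjusted p = 0.002894), and passed the test with each library left out in turn. A window of DNMT3A in intron 6 (chr2:25474001-25475000) went from 0%, 0% and 1.10% to 1.85%, 3.57% and 1.74% (adjusted p = 0.03587). Its call was lost without the first or second conventional or the second reset library, with adjusted p from 0.1038 to 0.1297, and with at least 30 calls required in every library (adjusted p = 0.05041).

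A single window kept at least 80% of a conventional level of 50% or more. It lies in intron 7 of TET1 (chr10:70430001-70431000), with 68.0%, 66.7% and 73.3% in conventional and 50%, 70.6% and 50% in reset libraries. With 3 CpGs and as few as 14 calls in a library, its difference of -12.5 ± 10.2 points did not pass the test (adjusted p = 0.2307). Among all windows of 50% or more, 0.147% kept this much.

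The promoters of the wider pathway were lower about as often as the members. Of 48 related genes (maintenance partners, methyl-CpG readers, repair enzymes, heterochromatin and oocyte imprint factors, and enzymes of their metabolites), 28 promoters (58.3%) were lower and 0 higher, with a median difference of -6.77 points, against 67.4% lower and -9.59 points over all promoters. All but 5 of the related promoters overlap a CGI, and among all promoters with a CGI 58.2% were lower, with a median difference of -5.22 points. No related promoter that had 50% or more kept 80% of it. Of the 19 under 5% in conventional cells, 2 passed the test (EHMT1 and APEX1, falls of 2.36 and 1.28 points), where 16.8% of all promoters under 5% were lower. Both calls were lost with limma on CpG means (adjusted p = 0.581 and 0.3725) and without the first conventional, the first reset or the third reset library (adjusted p from 0.06307 to 0.1758), and that of APEX1 also without the second conventional or second reset library (0.06615 and 0.07865). Their neighbours in level included HELLS, the chromatin remodeller that works with DNMT1, at 0.629% ± 0.39 and 1.33% ± 1.6 (adjusted p = 0.2528), and UHRF2, the paralogue of UHRF1, at 2.16% ± 1.2 and 2.00% ± 0.37 (adjusted p = 0.7362).

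The largest falls of the pathway were at KHDC3L, a component of the oocyte subcortical maternal complex, from 95.2% ± 1.88 to 3.41% ± 0.30 (adjusted p = 4.785e-10), and at DPPA3, which protects methylation in the zygote, from 79.9% ± 10.1 to 4.41% ± 4.02 (adjusted p = 1.971e-07). NLRP7 and NLRP2, maternal genes linked to imprinting disorders, fell from 52.6% ± 16.3 to 0.980% ± 0.86 (adjusted p = 2.28e-06) and from 50.3% ± 11.7 to 0.617% ± 1.07 (adjusted p = 3.573e-06). The genes start close together on opposite strands, and their promoters share 1130 of 1500 bp, with 48 CpGs, so these falls are largely one measurement. CTCFL and APOBEC1, which act in testis and gut, fell too (adjusted p = 6.642e-05 and 4.401e-05), but from 82.5% and 83.2% to 43.0% ± 10.2 and 39.9% ± 3.12.

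The 3 pathway genes described on the X chromosome stood between 43.6 and 53.3% in conventional cells. For this chromosome in general the study reports that CGI methylation of intermediate level was reduced by resetting. The share over all X-linked promoters was not computed here, so the falls below are not shown to be particular to these genes. SUV39H1, a histone methyltransferase, fell from 53.3% ± 13.6 to 2.34% ± 1.74 (adjusted p = 2.07e-07). ZBTB33 (Kaiso), a methyl-CpG reader, fell from 49.8% ± 6.17 to 1.97% ± 1.58 (adjusted p = 8.977e-08), and OGT, the glycosyltransferase that binds TET proteins, from 43.6% ± 11.2 to 0.873% ± 0.85 (adjusted p = 1.824e-07). SETDB1, the autosomal histone methyltransferase that works with TRIM28, fell from 31.7% ± 7.34 to 0.755% ± 0.63 (adjusted p = 2.744e-07), and by 4.43 points from 500 bp upstream to 500 bp downstream (adjusted p = 0.00481).

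**Figure D5:**
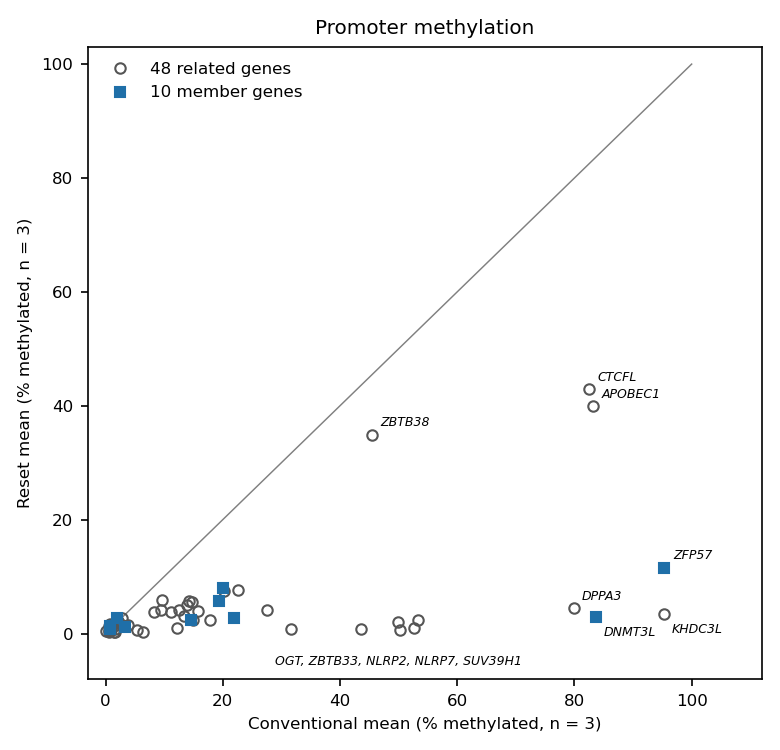
Mean promoter methylation (percent of calls, n = 3 libraries) in conventional (horizontal) and reset cells (vertical) of the 10 genes (squares) and of 48 related genes (open circles), with the line of equality. DNMT3L, ZFP57, DPPA3 and KHDC3L join a high conventional level with a reset level under 12%, whereas CTCFL and APOBEC1 keep 43.0 and 39.9%.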

How the data were processed

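Bisulfite libraries of H9 cells were trimmed with Trim Galore and aligned to GRCh37 with Bismark by the authors (version 0.9.0 in the submitters' processing notes, an earlier one in the study's methods). A step that removes duplicate reads is not given in the sources used here. The deposited counts are methylated and unmethylated calls per CpG cytosine and library, with no normalization; positions, counted from 0 there, are printed from 1.

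The members, the related genes and the tests were chosen with earlier results of these data known. Calls were summed over strands and features (GENCODE release 44 for GRCh37): promoters, other TSSs more than 1500 bp away (starts within 500 bp joined), gene bodies without the promoter window of the canonical TSS, and 1-kb windows. CGIs were merged 500-bp windows with 55% GC or more and over 0.65 of the CpGs their composition predicts. Repeats were not masked or annotated, so windows named for large falls may lie in them, and read mapping there was not examined. A feature was tested when each of the 6 libraries gave 10 calls or more. The test was an F test of the likelihood ratio in a quasi-binomial logistic regression (R 4.3.3), with dispersions squeezed by limma 3.58.1 and never below 1. Adjustment by Benjamini-Hochberg covered each whole table, with a threshold of 0.05. SEs use this dispersion. The 95% intervals are normal limits from these SEs and may be too narrow for 3 libraries per group. Levels are means over libraries with SD. The text names every member with its promoter and body, its other TSSs in full or by their range, the windows raised, retained or most lowered, and the 5 related promoters with the largest falls. Other related promoters and erased windows were named after their values were seen. Of the list of related genes 2 are not reported here. The alternatives were other call minimums, Fisher's exact test, limma on CpG means, removal of CpGs of very high coverage, narrower or wider features, a replicate block and leaving out each library.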

Additional observations from a re-analysis of the deposited data

How the results depend on the processing

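The 6 lower member promoters, the 10 lower gene bodies and the 43 lower other TSSs gave the same or nearly the same counts under the alternatives, apart from the window around the TSS. From 500 bp upstream to 500 bp downstream, 4 member promoters and 13 of the 48 related promoters (28 otherwise) were lower, and the difference at DNMT3A-203 turned from -4.59 to 0.044 points. With at least 30 calls in every library 422 member windows were tested, and 392 were lower. Of the other TSSs 39 were then tested and 38 were lower. Leaving out each library in turn gave 6 member promoters, 43 other TSSs and 10 bodies throughout, 739 to 742 lower and 2 to 4 higher windows, and 23 to 28 related promoters. The replicate numbers are shared between the groups, but deviations of same-numbered libraries did not correlate (0.00949, 0.00813 and 0.00141 over 17817 promoters). No pairing by number was thus seen, though counting error at this depth could hide a weak one. With the replicate block 6 member promoters, 43 other TSSs, 10 bodies, 741 lower and 3 higher windows and 27 related promoters passed. For the member promoters and bodies, 8 other TSSs, 21 windows (raised, retained, most lowered or with the lowest level or p among the erased) and 14 related promoters, 684 of 718 alternative values kept their direction and their side of the threshold, 25 lost the call, most of them at EHMT1 and APEX1, and 9 changed sign. Besides DNMT3A-203 these were features that did not pass in either case. With each library left out in turn the DNMT3A promoter ranged from -0.61 to 1.85 points (0.79 otherwise), the TET2 promoter from -0.18 to 0.46 (0.20 otherwise), TET3-201 from -0.80 to 0.86 (0.19 otherwise), HELLS from -0.19 to 1.37 (0.71 otherwise) and UHRF2 from -0.67 to 0.53 (-0.16 otherwise). The sign changed without the second reset library in the first 4 (TET3-201 then at -0.35 points), at TET3-201 also without the third conventional library, and at UHRF2 without the first conventional library. TET3-201 was at -0.43 points with Fisher's exact test on pooled calls and at -0.33 with limma on CpG means. The depth of 2.51 to 3.49 calls per CpG limits single CpGs and the smallest windows. A promoter that did not pass is shown only to lie within its interval, which may be too narrow.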
